A study of Homo sapiens with 4 samples.

Results

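The aminoacyl-tRNA synthetases described here are 37 protein-coding genes, 20 for enzymes of the cytosol and 17 for enzymes of mitochondria. They were taken by symbol from a table of 27800 gene symbols. A symbol with no suffix was counted as cytosolic, as were EPRS, QARS, FARSA and FARSB, and a symbol with the suffix 2 as mitochondrial. All 37 were found, and all 37 averaged 1 TPM or more (the share of a transcript in its library, set per transcript length), the level from which 12603 genes were tested. RNA came from the human cell line MOLM-13, an acute myeloid leukaemia of monocytic character with the KMT2A-MLLT3 (MLL-AF9) fusion. Cells had received CRISPR-Cas9 by lentivirus, either with a guide against KAT6A (sgKAT6A, 2 libraries) or with the vector labelled EV (2 libraries). KAT6A (MOZ) acetylates lysines of histones, and the groups were compared for the transcription program of these cells after its targeting. The guide sequence, the number of guides, the content of the EV vector, the time of harvest and whether cells were cloned or kept as a pool are not stated in the labels. Nothing in the labels ties the replicates of a group to separate cultures, so a p-value here measures only the spread between these libraries.

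Each synthetase joins an amino acid to the tRNAs that carry its anticodons, in a reaction that uses ATP, and so supplies charged tRNA to the ribosomes of the cytosol or of mitochondria. The enzymes fall into class I and class II by the fold of the catalytic domain. In human cells, several cytosolic enzymes and the scaffold proteins AIMP1, AIMP2 and EEF1E1 form a multisynthetase complex, and others are free. Mitochondrial enzymes are encoded by nuclear genes, and GARS and KARS each encode forms for both compartments. Many cytosolic synthetase genes are targets of the transcription factor ATF4, which acts when amino acids are scarce.

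KAT6A itself had 12.2 and 10.8 TPM in sgKAT6A libraries, against 16.2 and 16.7 TPM in EV libraries (log2 difference -0.48, limma adjusted p = 0.784). Expression of 7 of 7 lineage markers of these cells was present, with means of 9.82 to 8901 TPM. Of these, FLT3 had 46.2 and 42.9 TPM in sgKAT6A libraries and 61.0 and 59.4 TPM in EV libraries, while LYZ had 10975 and 9500 TPM in sgKAT6A libraries and 7059.9 and 8068 TPM in EV libraries. The summed level of 15 markers of other cell types was 278 to 446 TPM in sgKAT6A libraries and 156 to 472 TPM in EV libraries, mostly from the globin genes HBB and HBA1. Of these 15, 6 averaged 1 TPM or more. Besides the globin genes these were PECAM1 (32.8 to 77.9 TPM over the 4 libraries), CD3D (5.65 to 11.5 TPM), KRT18 (5.99 to 7.12 TPM) and KRT8 (2.74 to 3.57 TPM). MS4A1 was listed at 0 in all 4 libraries, and CD3E, CDH5 and ALB at 0 in both EV libraries. Protein-coding genes held 77.9% and 78.2% of TPM in sgKAT6A libraries, against 81.2% and 81.7% in EV libraries. The ribosomal RNA symbol RNA18SN5 stood at 339.5 TPM in sgKAT6A replicate 2 and at 10401 to 13751 TPM in the other libraries. The part of these values in the synthetase results was not tested, except that the protein-coding share was removed by rescaling, as given below. In bulk RNA, fewer cells of a type and less RNA per cell cannot be told apart.

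Synthetase mRNA was lower in sgKAT6A libraries for most cytosolic enzymes, but no synthetase passed the test. The 20 cytosolic genes together held 1313 and 1114 TPM in sgKAT6A libraries, against 1506 and 1429 TPM in EV libraries. The 17 mitochondrial genes held 298 and 246 TPM in sgKAT6A libraries, against 326 and 305 TPM in EV libraries. Each sum was lower in each sgKAT6A library than in either EV library, and sgKAT6A replicate 2 was the lowest of all. The mean cytosolic sum was 1214 ± 140.2 TPM with sgKAT6A and 1467 ± 54.4 TPM with EV (SD, n = 2 each), a ratio of 0.827. For the mitochondrial sum the means were 272 ± 36.7 TPM with sgKAT6A and 316 ± 14.6 TPM with EV (SD, n = 2 each), a ratio of 0.862. An exact two-sided permutation test of 2 libraries against 2 cannot go below 0.333, the value it gave for each sum.

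Across all 12603 genes, 0.0% passed an adjusted p of 0.05 in limma's test, and 249 lower and 210 higher genes had an unadjusted p under 0.05. The adjusted p of the synthetases was at least 0.784. AARS was the only synthetase with an unadjusted p under 0.05 in this fit, which is 1 of 37, where 1.98% of all genes tested were lower at that level. Counted by overlap of the libraries instead, 16 of 37 synthetases had the sgKAT6A libraries wholly below the EV libraries and 0 had them wholly above. The same held for 23.2% of all genes tested in the lower direction and for 14.4% in the higher direction. Among protein-coding genes tested, these shares were 25.2% lower and 13.5% higher. Abundant genes had a larger share, since 30.9% of protein-coding genes that averaged 10 TPM or more were lower without overlap. Cytosolic genes made up 12 of the 16, or 60.0% of their 20, and mitochondrial genes 4, or 23.5% of their 17, which is near the share of protein-coding genes. The mitochondrial count was 14 without sgKAT6A replicate 1, 7 without EV replicate 1 and 13 without EV replicate 2, where 46.3%, 39.5% and 38.0% of protein-coding genes were lower without overlap.

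The median log2 difference on the log2(TPM + 1) scale, sgKAT6A minus EV, was -0.34 for cytosolic and -0.17 for mitochondrial synthetases. It was -0.02 for all genes tested and -0.03 for protein-coding genes, of which the middle 50% lay between -0.19 and 0.15. The estimate was negative for 18 of 20 cytosolic and 17 of 17 mitochondrial genes, and for 6624 of the 12603 genes tested. The libraries of a group also differed: the median gap of replicate 2 minus replicate 1 over the cytosolic genes was -0.28 in sgKAT6A and -0.11 in EV. In mitochondrial genes these gaps were -0.27 in sgKAT6A and -0.17 in EV. sgKAT6A replicate 2 was the lowest library for 31 of 37 synthetases, and EV replicate 1 the highest for 26. Of all 12603 genes tested, 5032 had sgKAT6A replicate 2 lowest and 3291 had EV replicate 1 highest. Without sgKAT6A replicate 2 the medians were -0.15 for cytosolic and -0.05 for mitochondrial genes, and without sgKAT6A replicate 1 they were -0.49 and -0.38. Without EV replicate 2 the mitochondrial median was -0.26. The difference between groups was larger than the gap within each group for AARS, FARSA, FARSB, GARS, KARS, SARS and YARS in the cytosol. In mitochondria this held for FARS2 and IARS2 among the genes reported by name. No such count was made over all genes tested, so there is no share to set beside it, and these genes are not shown to stand out.

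**Figure D1:**
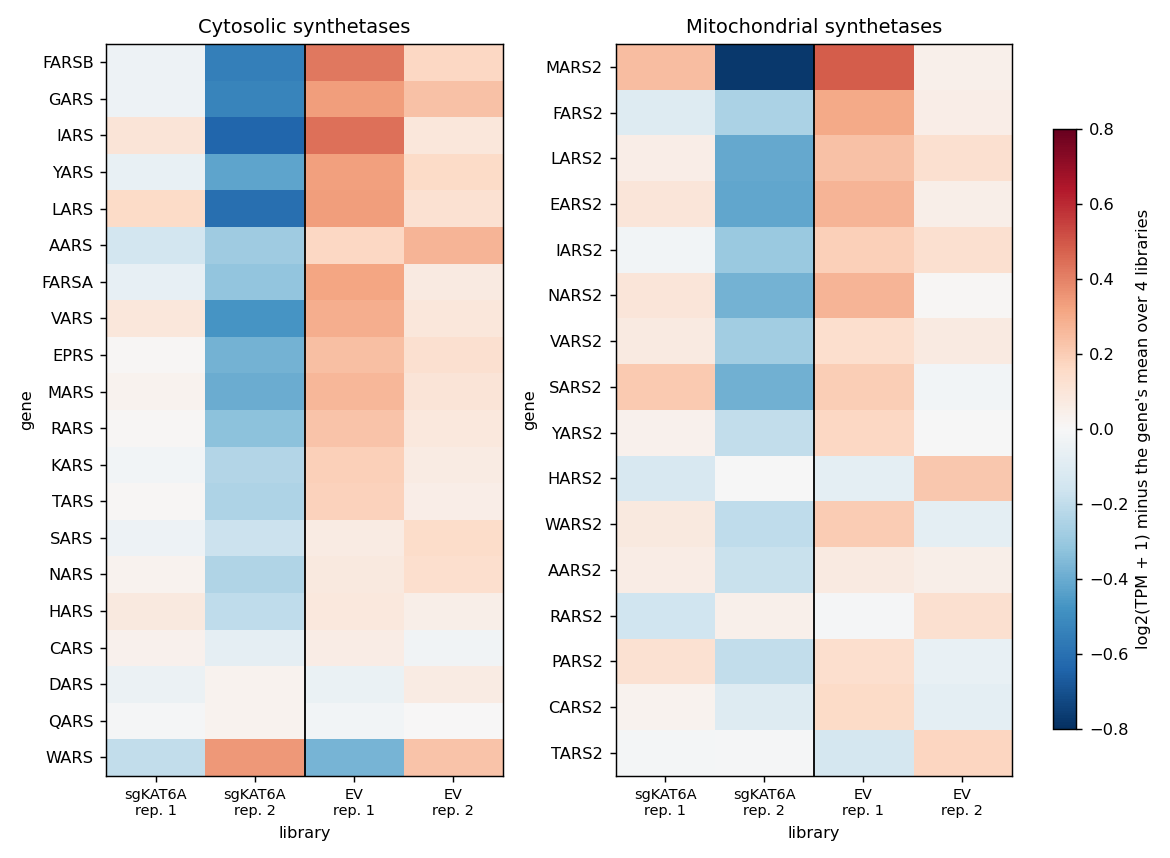
Each cell is log2(TPM + 1) of 1 synthetase gene in 1 library minus that gene's mean over the 4 libraries, for 20 cytosolic (left) and 16 of the 17 mitochondrial (right) genes. The sgKAT6A replicate 2 column is the bluest for most genes, and EV replicate 1 the reddest. WARS runs furthest the other way, with replicate 2 high in both groups. Others, such as HARS2 and DARS, also have replicate 2 higher in both groups, by less.

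By level, which in TPM is set per transcript length and can be compared between genes, cytosolic synthetases ranged from 23.6 TPM for CARS to 171 TPM for FARSA, as means over all libraries. Their median was 58.4 TPM, against 16.3 TPM for mitochondrial synthetases and 14.7 TPM for protein-coding genes tested. PARS2, the mitochondrial prolyl enzyme, was lowest, at 3.05 TPM, and CARS2, the mitochondrial cysteinyl enzyme, was the highest mitochondrial gene, at 43.5 TPM. FARSA had the highest level and PARS2 the lowest in each of the 4 libraries. Neighbours in the order could overlap in their libraries, as TARS and WARS did at means of 70.0 and 74.0 TPM.

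**Figure D2:**
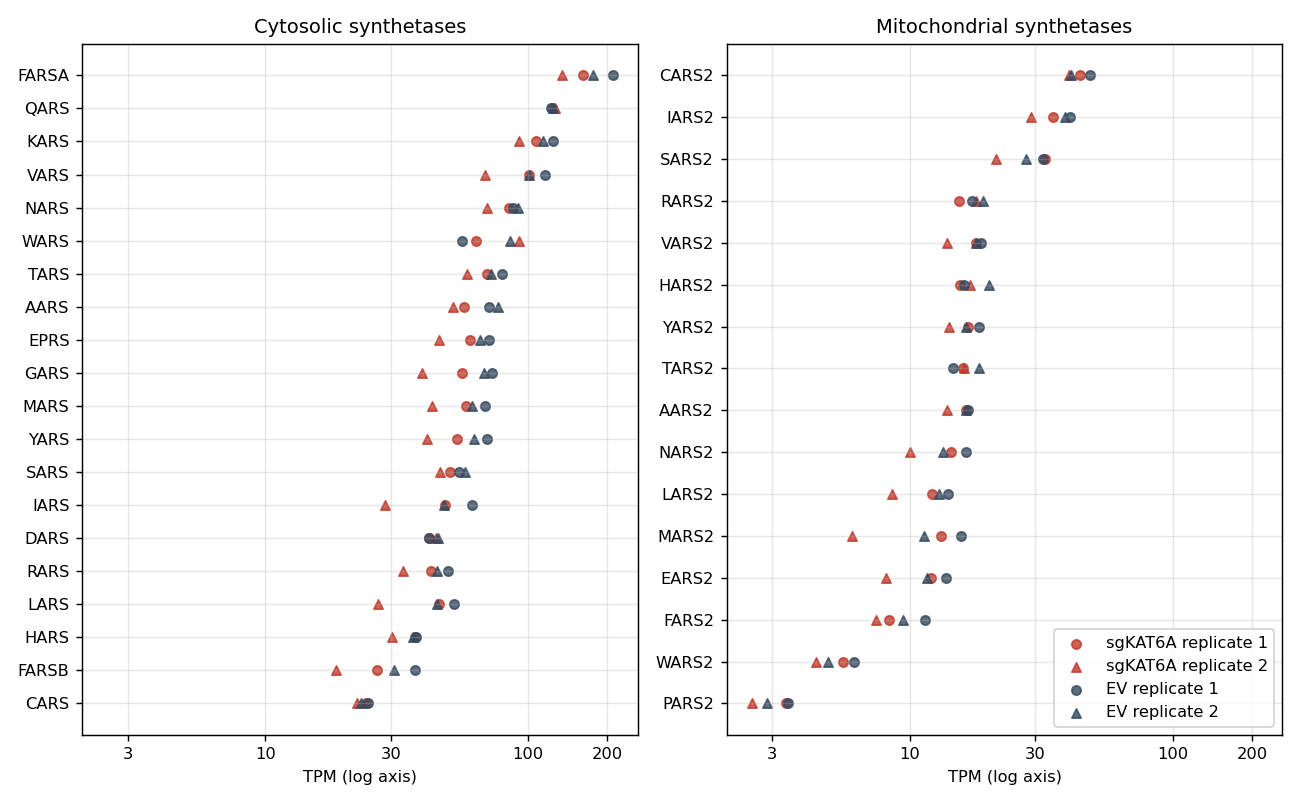
TPM on a log axis for each synthetase in the 2 sgKAT6A and 2 EV libraries, sorted by mean level, with 20 cytosolic genes left and 16 of the 17 mitochondrial genes right. Cytosolic genes lie mostly between 30 and 100 TPM and mitochondrial genes mostly below 30 TPM.

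The phenylalanyl enzyme is built from alpha and beta subunits, encoded by FARSA and FARSB. FARSB (chromosome 2, 222570536 to 222656337, minus strand, GRCh38) had 26.7 and 18.5 TPM in sgKAT6A libraries, against 37.2 and 30.9 TPM in EV libraries. The sgKAT6A libraries lay wholly below the EV libraries, and the log2 difference was -0.59 ± 0.23 (SE, limma unadjusted p = 0.0643, adjusted p = 0.784). With all 4 libraries this was the most negative of the 37, but FARSB was at -0.33 without sgKAT6A replicate 2, where AARS was at -0.36, and at -0.84 without sgKAT6A replicate 1, where MARS2 was at -1.03. FARSA had 161 and 135 TPM in sgKAT6A libraries, against 209.6 and 177 TPM in EV libraries, again without overlap (log2 difference -0.39 ± 0.16, SE). The level of FARSA over that of FARSB, a ratio chosen after the values were seen, was 6.02 and 7.29 in sgKAT6A libraries and 5.63 and 5.74 in EV libraries.

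GARS, the glycyl enzyme of cytosol and mitochondria (chromosome 7, 30594681 to 30634033, plus strand), had 55.8 and 39.6 TPM in sgKAT6A libraries, against 72.8 and 67.9 TPM in EV libraries. Its groups did not overlap, and the log2 difference was -0.57 ± 0.21 (SE, limma unadjusted p = 0.0505, adjusted p = 0.784). YARS, the tyrosyl enzyme, had 53.4 and 41.3 TPM in sgKAT6A libraries and 70.0 and 62.1 TPM in EV libraries, which is -0.48 ± 0.18 on the log2 scale (SE). Without sgKAT6A replicate 2 the estimates were -0.33 for GARS and -0.3 for YARS. AARS, the alanyl enzyme (chromosome 16, 70252295 to 70289543, minus strand), had 57.2 and 51.8 TPM in sgKAT6A libraries, against 71.1 and 76.6 TPM in EV libraries. The libraries of each AARS group lay close together, with 54.5 ± 3.84 TPM in sgKAT6A and 73.8 ± 3.86 TPM in EV libraries (SD, n = 2 each). Its log2 difference was -0.43 ± 0.12 (SE, 95% interval -0.78 to -0.09, limma unadjusted p = 0.0257, adjusted p = 0.784), the 195th smallest p of the 12603 genes. Among the other free cytosolic enzymes, RNA for the threonyl, asparaginyl and seryl enzymes TARS, NARS and SARS was lower in sgKAT6A without overlap, at -0.24, -0.21 and -0.21. The valyl, histidyl and cysteinyl enzymes VARS, HARS and CARS overlapped between groups, at -0.38, -0.13 and -0.03. In all, 8 of 12 free cytosolic enzymes were lower without overlap, against 25.2% of protein-coding genes and 30.9% of abundant ones, with a median of -0.31.

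WARS, the tryptophanyl enzyme, which interferon gamma induces in human cells, was the cytosolic gene with the most positive difference (chromosome 14, 100333788 to 100376805, minus strand). It had 63.1 and 92.3 TPM in sgKAT6A libraries, against 55.8 and 85.0 TPM in EV libraries. Replicate 2 was the higher library in both groups, the groups overlapped, and the log2 difference was 0.15 ± 0.31 (SE, limma adjusted p = 0.899). Without sgKAT6A replicate 2 the difference was -0.12, and without EV replicate 1 it was -0.15, so its sign depended on which libraries were kept. Taken by replicate number, sgKAT6A minus EV was 0.17 for replicate 1 and 0.12 for replicate 2. The labels do not say that these numbers pair the libraries.

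Of the 8 enzymes of the multisynthetase complex, 4 were lower in sgKAT6A without overlap and 0 higher, against 25.2% and 13.5% of protein-coding genes, with a median log2 difference of -0.34. EPRS, which joins glutamyl and prolyl enzymes in a single protein, had 60.3 and 45.7 TPM in sgKAT6A libraries, against 70.8 and 65.5 TPM in EV libraries (log2 difference -0.37 ± 0.18, SE). MARS, the methionyl enzyme, had 58.1 and 43.0 TPM in sgKAT6A libraries and 68.5 and 61.3 TPM in EV libraries (log2 difference -0.37 ± 0.19, SE). KARS, the lysyl enzyme of cytosol and mitochondria, had 107 and 92.5 TPM in sgKAT6A libraries, against 124 and 114 TPM in EV libraries (log2 difference -0.26 ± 0.13, SE). These 3 and RARS, the arginyl enzyme, are the 4 without overlap. IARS and LARS, for isoleucine and leucine, had log2 differences of -0.53 and -0.45, but their groups overlapped because sgKAT6A replicate 1 reached the EV range. Without sgKAT6A replicate 2 the estimates were -0.17 for EPRS, -0.16 for MARS, -0.15 for KARS, -0.16 for IARS and -0.08 for LARS. QARS, the glutaminyl enzyme, had 123 and 126 TPM in sgKAT6A libraries and 122 and 124 TPM in EV libraries (log2 difference 0.02, 95% interval -0.27 to 0.32). DARS, the aspartyl enzyme, was at -0.02 with overlapping groups.

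By catalytic class, 8 of 10 class II and 3 of 9 class I cytosolic enzymes were lower in sgKAT6A without overlap, against 25.2% of protein-coding genes, leaving out EPRS, which has a domain of each class. The medians ran the other way, at -0.25 for class II and -0.37 for class I, and class I genes differed more between replicates, with a median sgKAT6A gap of -0.36 against -0.25 for class II. The difference between the classes was not tested.

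**Figure D3:**
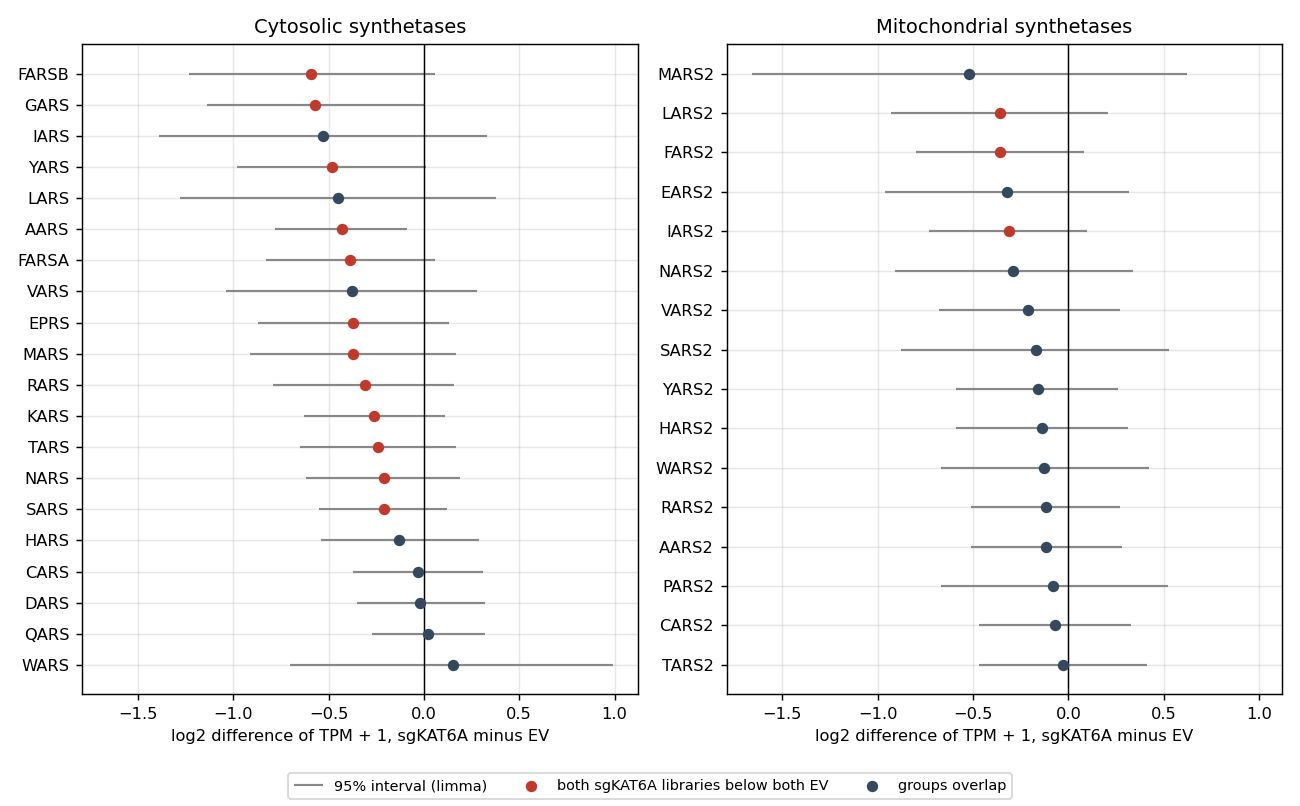
Log2 difference of TPM + 1, sgKAT6A minus EV, with limma's 95% interval, for 20 cytosolic (left) and 16 of the 17 mitochondrial (right) synthetases, sorted by difference. Red points have sgKAT6A wholly below EV (12 cytosolic and 3 mitochondrial genes), dark points overlap, and AARS is the gene whose interval does not reach 0.

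ATF4 binds, with C/EBP proteins, an element whose core was searched as TGATGNAA, and MYC with MAX binds the E-box CACGTG. Each was searched on both strands in the 250 bases before the start site, in RefSeq promoters of GRCh38.p14, which were found for 30 of 37 synthetases. The ATF4 core was present in 3 of 30 synthetase promoters (10.0%: AARS, IARS and YARS2), against 2.35% of 22199 protein-coding and 3.14% of 35116 promoters of all kinds. The E-box was present in 3 of 30 (10.0%: IARS, EARS2 and MARS2), against 7.37% of protein-coding and 6.34% of all promoters. A match is a description of these letters and not a site in use. The IARS window (chr9:92293698-92293947, minus strand) is shown because it holds both motifs. Capitals mark the matches. The ATF4 core is on the opposite strand, read here as TTGCATCA, 13 bases before the IARS start in RefSeq. The E-box lies 186 bases before that start. In GENCODE 29 the IARS gene reaches to 92293756, so the ATF4 core lies within the gene in that annotation.
IARS: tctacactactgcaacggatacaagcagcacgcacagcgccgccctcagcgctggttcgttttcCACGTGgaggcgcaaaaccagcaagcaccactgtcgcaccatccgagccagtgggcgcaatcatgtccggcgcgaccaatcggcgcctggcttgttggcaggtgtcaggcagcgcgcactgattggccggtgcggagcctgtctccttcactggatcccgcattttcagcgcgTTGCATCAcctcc

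Mitochondrial synthetases all had negative estimates, from -0.52 for MARS2 to -0.03 for TARS2, but 13 of 17 overlapped between groups. FARS2, the phenylalanyl enzyme, which acts as a monomer in mitochondria, had 8.34 and 7.44 TPM in sgKAT6A libraries and 11.4 and 9.42 TPM in EV libraries (log2 difference -0.36 ± 0.16, SE, limma unadjusted p = 0.088, adjusted p = 0.784). IARS2, the isoleucyl enzyme, had 35.2 and 28.9 TPM in sgKAT6A libraries, against 40.8 and 39.0 TPM in EV libraries (log2 difference -0.31 ± 0.15, SE). With LARS2, the leucyl enzyme, at 12.2 and 8.58 TPM in sgKAT6A libraries and 14 and 12.9 TPM in EV libraries, these are 3 of the 4 mitochondrial genes without overlap.

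Other mitochondrial genes overlapped between the groups. EARS2, the glutamyl enzyme, had 12 and 8.14 TPM in sgKAT6A libraries, against 13.7 and 11.6 TPM in EV libraries. NARS2, the asparaginyl enzyme, had 14.3 and 10.0 TPM in sgKAT6A libraries and 16.3 and 13.4 TPM in EV libraries. In both genes sgKAT6A replicate 1 lay above EV replicate 2, and sgKAT6A replicate 2 below every other library. CARS2 had 44.3 and 40.4 TPM in sgKAT6A libraries and 48.3 and 41.0 TPM in EV libraries, and PARS2 had 3.39 and 2.51 TPM in sgKAT6A libraries and 3.43 and 2.86 TPM in EV libraries. WARS2, the tryptophanyl enzyme, had 5.57 and 4.4 TPM in sgKAT6A libraries, against 6.15 and 4.9 TPM in EV libraries. The estimates of CARS2, PARS2 and WARS2, at -0.07, -0.08 and -0.13, all changed sign when EV replicate 1 was left out. SARS2, the seryl enzyme, had 32.6 and 21.2 TPM in sgKAT6A libraries and 32.2 and 27.6 TPM in EV libraries, and its -0.17 became 0.13 without sgKAT6A replicate 2. SARS2 shares 46.2% of its exon bases with the readthrough gene AC011455.2, and VARS2 shares 22.0% with GTF2H4 on the same strand in GENCODE 29, so the values of both are uncertain.

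MARS2, for the methionyl enzyme that also serves the initiator tRNA of mitochondria, had 13.2 and 6.02 TPM in sgKAT6A libraries, against 15.7 and 11.3 TPM in EV libraries. Its gap between sgKAT6A replicates was the largest of the 37, and its difference of -0.52 carried an SE of 0.41 and was -0.01 without sgKAT6A replicate 2. The MARS2 window (chr2:197705119-197705368, plus strand) is shown for its E-box, in capitals, 11 bases before the start. HARS and HARS2, the histidyl enzymes, are transcribed away from each other, and the 84 bases between their RefSeq starts (chr5:140691371-140691454, plus strand) are shown because they lie before the RefSeq starts of a cytosolic and a mitochondrial synthetase. They hold no match to either motif. GENCODE 29 has longer models of these genes that share 437 exon bases on opposite strands, so these bases are not outside the genes in that annotation. The genes overlapped between groups and had log2 differences of -0.13 for HARS and -0.14 for HARS2.
MARS2: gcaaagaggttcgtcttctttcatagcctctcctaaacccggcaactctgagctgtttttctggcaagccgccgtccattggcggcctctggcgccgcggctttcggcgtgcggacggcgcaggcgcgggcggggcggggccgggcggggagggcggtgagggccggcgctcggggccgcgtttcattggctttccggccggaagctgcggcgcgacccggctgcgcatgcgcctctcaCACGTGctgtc
HARS and HARS2: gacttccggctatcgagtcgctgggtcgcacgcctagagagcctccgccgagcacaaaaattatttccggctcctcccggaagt

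Cytosolic and mitochondrial genes were paired where their symbols differ only by the suffix 2, which gave 14 amino acids. Phenylalanine, glutamate and proline also have separate genes for the compartments, but FARSA, FARSB and EPRS have no such match and were not paired. The cytosolic gene had the higher level in every library for 12 of the 14. CARS was below CARS2 in every library, with a mean ratio of 0.542, and the IARS over IARS2 ratio was 1.37 and 0.985 in sgKAT6A libraries and 1.5 and 1.23 in EV libraries. WARS over WARS2 was the widest, at 11.3 and 21.0 in sgKAT6A libraries and 9.07 and 17.3 in EV libraries. The ratio was lower in sgKAT6A without overlap for 2 of the 14 pairs, those of alanine and tyrosine, and higher for 1. No such count was made for other pairs of genes, so there is no share to set beside it. AARS over AARS2 was 3.48 and 3.75 in sgKAT6A libraries and 4.29 and 4.7 in EV libraries, and YARS over YARS2 was 3.19 and 2.93 in sgKAT6A libraries and 3.8 and 3.81 in EV libraries. The sum of cytosolic over that of mitochondrial synthetases was 4.4 and 4.53 in sgKAT6A libraries and 4.62 and 4.68 in EV libraries.

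Genes that work with the synthetases were read from lists in the same test, and in each the smallest adjusted p was 0.784. Counts without overlap stand against 23.2% lower and 14.4% higher over all genes tested, and 25.2% and 13.5% over protein-coding genes. Among protein-coding genes that averaged 10 TPM or more, 30.9% were lower and 10.2% higher. Of the complex scaffolds, AIMP1 was lower without overlap, with 23.9 and 20.5 TPM in sgKAT6A libraries and 27.2 and 25.9 TPM in EV libraries. AIMP2 had 45.2 and 25.4 TPM in sgKAT6A libraries and 50.4 and 38.9 TPM in EV libraries, and EEF1E1 had 67.3 and 42.3 TPM in sgKAT6A libraries and 68.8 and 51.7 TPM in EV libraries, both with overlap. Of the genes that make mitochondrial glutaminyl-tRNA by transamidation or formylate the initiator, GATB, QRSL1 and MTFMT were lower without overlap and GATC was not, with a median of -0.20 over 4. Mitochondrial elongation factors had 4 of 5 genes lower without overlap and a median of -0.36. Their leading gene TUFM, which brings charged tRNA to the mitochondrial ribosome, had 188 and 147 TPM in sgKAT6A libraries and 246 and 210.3 TPM in EV libraries. Cytosolic elongation factors had 1 of 5 lower and a median of -0.04. Selenocysteinyl-tRNA synthesis had 2 of 4 lower, SEPHS1 and SEPHS2, and synthetase-like and editing genes 1 of 6, PTRH2. In both these lists 0 genes were higher without overlap. The machinery of RNA polymerase III, which transcribes tRNA genes, had 8 of 17 genes lower and 0 higher without overlap, with a median of -0.25.

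Genes of the integrated stress response and of amino acid synthesis were lower without overlap for 12 of 24 tested and higher for 0. The shares were 23.2% and 14.4% of all genes tested, and 30.9% and 10.2% of protein-coding genes that averaged 10 TPM or more. The list had a median of -0.25 and a range from -1.18 for CBS to 1.12 for NUPR1. ATF4 had 237 and 218 TPM in sgKAT6A libraries, against 290.3 and 252 TPM in EV libraries, and ASNS, the asparagine synthetase, had 9.76 and 4.85 TPM in sgKAT6A libraries, against 12.1 and 12.3 TPM in EV libraries. PHGDH, the first enzyme of serine synthesis, had 28.1 and 25.2 TPM in sgKAT6A libraries and 42.8 and 36.4 TPM in EV libraries. These 3 genes were lower without overlap. DDIT3, a transcription factor of the same response, overlapped, with 13.2 and 21.2 TPM in sgKAT6A libraries and 11.7 and 16 TPM in EV libraries. Its log2 difference was 0.27. Over the 24 genes tested, the estimate was negative for 14 and positive for 10, so the list did not move as a whole. DDIT3 lies against MARS on the opposite strand and shares 355 exon bases with it, or 5.05% of the exon bases of MARS. Whether reads were assigned by strand is not given, and 18 of the 37 synthetases share exon bases with a gene on the opposite strand. Amino acid transporters were lower without overlap for 5 of 13 and higher for 0 (median -0.21). Kinases that phosphorylate eIF2 alpha were lower for 1 of 4 and higher for 2 (median 0.06), to be set against the same shares.

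Interferon gamma response genes, listed beside WARS, were higher without overlap for 2 of 9 tested (22.2%, against 14.4% of all genes tested) and lower for 0, with a median of 0.44. The 2 were IRF1, with 10.9 and 12.9 TPM in sgKAT6A libraries and 8.23 and 8.51 TPM in EV libraries, and PSMB9, with 28.3 and 38.8 TPM in sgKAT6A libraries and 17.3 and 23.7 TPM in EV libraries. As for WARS, replicate 2 was the higher library of each group for both genes.

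**Figure D4:**
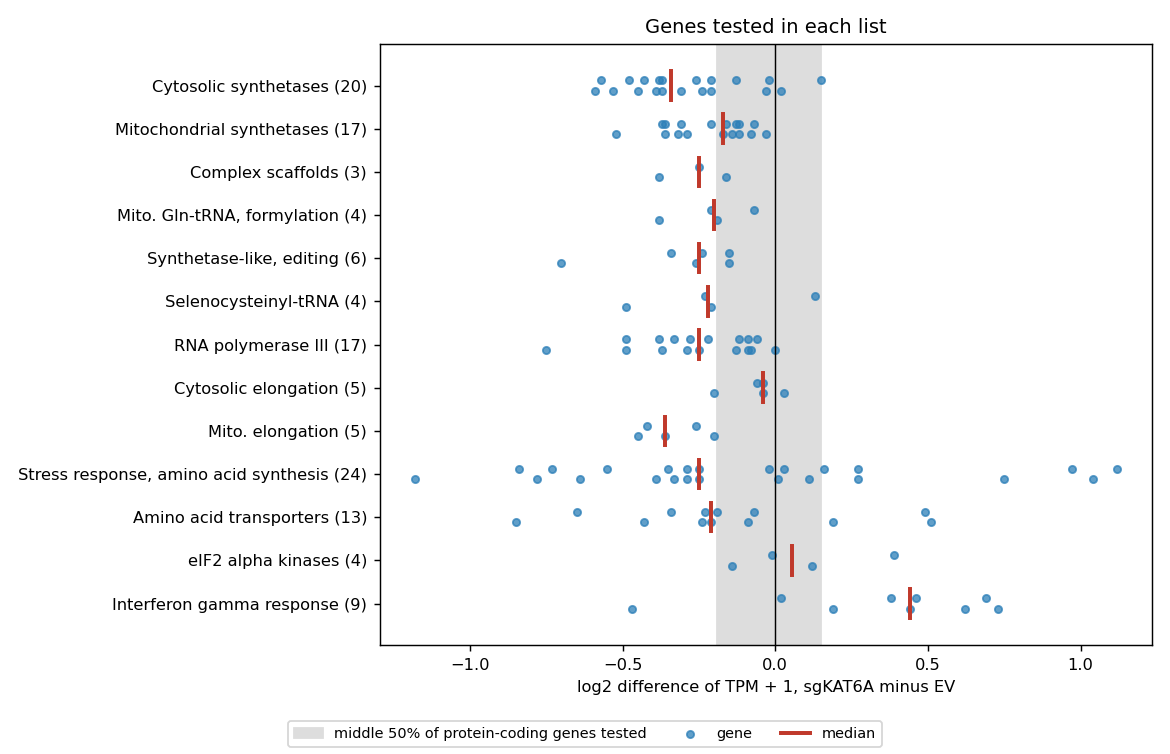
Log2 difference of TPM + 1, sgKAT6A minus EV, for each gene tested (points) with the list's median (red bar), for the synthetases and the lists of genes that work with them. Grey marks the middle 50% of protein-coding genes, -0.19 to 0.15; the cytosolic synthetase median of -0.34 lies outside it and the mitochondrial median of -0.17 inside.

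Rescaled to the sum of protein-coding genes, which removes the difference in their share, the median was -0.28 for cytosolic and -0.12 for mitochondrial synthetases, against 0.03 for all genes kept. The count lower without overlap was then 10 of 20 cytosolic and 4 of 17 mitochondrial genes, against 16.4% of protein-coding genes, and 1 cytosolic gene was higher, against 19.4%.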

How the data were processed

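RNA libraries of MOLM-13 cells were grouped by their titles into 2 sgKAT6A and 2 EV libraries. The authors deposited 1 table of gene-level TPM. Per the submitters' processing notes, it was made with Salmon and the hg38 build. Version, transcript annotation, strand setting and filters were not given in the sources used. TPM keeps no read depth, so depth is unknown and no counting interval was computed, and an abundant RNA moves the TPM of all other genes.

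From these values, log2(TPM + 1) was compared with limma 3.58.1 in R 4.3.3 for 12603 genes that averaged 1 TPM or more, without further scaling. Empirical Bayes variances followed a trend on the mean, with 2 residual and 1.98 prior degrees of freedom. Two-sided p-values were adjusted over the 12603 genes by the Benjamini-Hochberg method, with a threshold of 0.05. Fold changes on this scale understate those of low genes. RefSeq records gave the class of 12381 of the genes tested, and GENCODE 29 gave coordinates on GRCh38.

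The members, lists and naming rule were chosen with earlier results of these data known. Values per library are given for the 8 cytosolic and 6 mitochondrial synthetases with the smallest p, the 3 highest of each, the 3 lowest, and EPRS, GARS, KARS, WARS and AARS. Others, such as MARS2, were named after their values were seen. Of other lists, up to 3 genes with the smallest p were taken, with AIMP1, AIMP2, EEF1E1, ATF4, DDIT3, ASNS and KAT6A. A few of the genes and sequences that this rule takes are not reported here by name, but they remain in all counts, sums and medians.

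The test was run on simulated data with 12603 genes, 200 of them changed, in 5 runs. At the observed spread, it recovered 15.2% of 4-fold and 0.2% of 2-fold changes of sgKAT6A minus EV.

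Alternatives were the pseudocount, the filter, the scaling, the variance trend, the replicate number as a block and leaving out each library. Counts without overlap were repeated under other scalings and without each library, which was chosen after seeing the data.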

Additional observations from a re-analysis of the deposited data

How the results depend on the processing

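The count of genes past an adjusted p of 0.05 in limma's test was 0 under every alternative without a replicate block, and 15 with the replicate block, of which 0 are synthetases (smallest adjusted p of a synthetase 0.175). With that block 16 of 37 synthetases had an unadjusted p under 0.05 in limma's test. Of all 12603 genes tested, 1309 lower and 1108 higher genes did so in the same fit. Labels do not say that the replicate numbers pair the libraries. Across the 12603 genes tested, the deviations of same-numbered libraries from their group means had a correlation of 0.455, with only 2 libraries in each group.

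Under the other pseudocounts, filters, scalings, variance model and replicate block, the cytosolic median stayed between -0.35 and -0.28 and the mitochondrial median between -0.19 and -0.12. Leaving out each library gave cytosolic medians of -0.49 to -0.15 and mitochondrial medians of -0.38 to -0.05. Without sgKAT6A replicate 1 the count of mitochondrial genes lower without overlap was 14 of 17, and over all libraries left out in turn it was 6 to 14. The cytosolic count was 12 to 17 of 20. With 1 library in a group, 46.3%, 35.0%, 39.5% and 38.0% of protein-coding genes were lower without overlap when sgKAT6A replicate 1, sgKAT6A replicate 2, EV replicate 1 and EV replicate 2 were left out. Such a fit assumes that the lone library varies like the other group. Over all genes tested, the median log2 difference was between -0.07 and 0.02 in the fits that left out 1 library.

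Among synthetases taken by the naming rule, the estimate changed sign without EV replicate 1 for CARS2 (0.04), PARS2 (0.02), WARS (-0.15) and WARS2 (0.01), and without sgKAT6A replicate 2 for PARS2 (0.09), SARS2 (0.13), WARS (-0.12) and WARS2 (0.02). Over all libraries left out in turn, PARS2 ranged from -0.24 to 0.09, SARS2 from -0.48 to 0.13, WARS from -0.15 to 0.45 and WARS2 from -0.27 to 0.02. The cause was not tested. The other synthetases taken by the naming rule kept their sign under each alternative run. For synthetases outside that rule, leaving out a library also turned the sign of CARS (0.01 without EV replicate 1, 0.02 without sgKAT6A replicate 2), DARS (0.02 without sgKAT6A replicate 1, 0.04 without EV replicate 2), HARS (0.02 without sgKAT6A replicate 2), HARS2 (0.01 without EV replicate 2) and TARS2 (0.13 without EV replicate 2). With 2 libraries a group and no depth, small differences could not be told from the spread between libraries.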
